A study of Drosophila melanogaster with 9 samples.

Results

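Pleated septate junctions are the occluding junctions that ectodermal epithelia and glia of insects use to seal the space between cells. Their core is a complex of transmembrane adhesion proteins and claudins, held on the cytoplasmic side by scaffold proteins, with a separate set of proteins at the corners where 3 cells meet. The midgut epithelium, from which these tumors were derived, is known for a different barrier, the smooth septate junction, which is built from another set of membrane proteins. Transcripts of 10 pleated septate junction genes, Gli, sinu, kune, pck, Cont, Nrx-IV, cora, Nrg, vari and Mcr, were followed in metastatic tumors of Drosophila through serial transplantation. They were chosen by name, out of 11982 genes named on the array, and 9 of the 10 had a named probe set. Mcr, a macroglobulin complement-related protein of the junction, had none that named it alone and was not analysed here. Nrg was read by 3 probe sets and each of the other 8 by 1, giving 11 of the 18769 probe sets tested.

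All tumors had the Apc-Ras-Sna genotype. Clones in the gut of adult females were null for Apc, mutant for Apc2, and expressed oncogenic RasV12, the EMT factor Sna and GFP under esg-Gal4, a driver active in midgut progenitors. Metastases from the abdomen were cut out and grown in young adult female hosts, and at each round part of the GFP-positive mass was moved to new hosts. Arrays were run on tumors of transplant rounds T1, T2 and T10, with 3 arrays per round and 9 in all. There was no normal tissue and no tumor of another genotype, so each comparison is between rounds of one tumor type.

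The labels call the 3 arrays of a round technical replicates while the series' design text speaks of 3 metastases from different flies, and p-values here therefore cover only the scatter of those arrays, which may be technical. Values are log2 RMA expression values, on which a difference of 1 is a doubling, and the median of all probe sets on an array was between 6.49 and 6.73. One array stood apart from its round. T2 replicate 3 correlated with the T10 arrays at 0.964 to 0.984 and with the other T2 arrays at 0.932 to 0.95, and results that rest on it are given with and without it. The labels place it in T2, and whether it is a swapped or mixed sample was not tested, so T2 means that include it may not measure T2 tumors alone. Of the progenitor markers, esg had a log2 value of 10.51 to 11.23 in T1 and 9.39 to 10.53 in T10. The other progenitor markers did not overlap between T1 and T10, with log2 changes of -3.99 for Sox21a, -4.56 for Sox100B and 3.36 for Delta (limma adjusted p = 0.109, 0.102 and 0.0831). Of all probe sets, 12.9% were higher in T10 than in T1 without overlap and 15.1% lower. Of the enterocyte markers, 1 of 4 named genes, nub, was above the median of all probe sets in T1. It read 6.68, 6.96 and 7.34 in T1 and 8.19, 9.69 and 7.76 in T10. Its log2 change was 1.55, without overlap (limma adjusted p = 0.131). The trypsin genes lambdaTry, betaTry and alphaTry were under the median in every round. Of these, betaTry was higher (0.09) and alphaTry lower (-0.29) in T10 without overlap. Each sample was a piece of a tumor, so a larger share of one cell type and more RNA per cell cannot be told apart in any value below.

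Comparing T10 with T1 asked whether the junction genes differed between an early and a late transplant. On all 3 T10 arrays, 7 of the 9 genes were higher than on any T1 array, namely Gli, the claudin genes sinu, kune and pck, and Cont, Nrx-IV and vari. Among all probe sets, 12.9% were higher in T10 without overlap, and 15.5% among those at or above the median mean level. The gap between the lowest T10 and the highest T1 array was 0.37 to 1.56 on the log2 scale. Their means were 2.0-fold to 5.68-fold higher, or 1.0 to 2.51 on the log2 scale. cora and the brightest Nrg probe set had overlapping arrays. The median log2 change was 1.19 over the 9 genes and -0.01 over all probe sets.

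None of the 9 genes passed an adjusted p of 0.05 in limma on all 9 arrays, where 0% of probe sets were called higher in T10 and 0.0107% lower. The adjusted p of the 7 genes lay between 0.0907 and 0.109, and all 7 had an unadjusted p under 0.05, as did 3913 probe sets. Some other fits moved this count and most did not. It stayed at 0 of the 9 with the replicate number as a block and with quantile normalization. The same held with dim probe sets left out and with the mean of a gene's probe sets. In these fits 0 to 2 were called higher among all tested. Over all alternatives, the highest limma adjusted p of each of the 7 was 0.644 to 0.648. With the T1 and T10 arrays alone, 6 genes passed (Gli, sinu, kune, pck, Cont and vari), where 2.98% of probe sets were called higher. T2 replicate 3 takes no part in the difference but widens the shared spread for each of the 7 genes except Nrx-IV. Without it all 7 passed, where 3.66% were called higher. For Nrx-IV the limma SE was 0.308 on all arrays and 0.307 without T2 replicate 3, with an unadjusted p of 0.0029 and 0.0036. The exact permutation test (two-sided) gave p = 0.1 for each of the 7, the smallest that 3 arrays in each round allow. Genes singled out for arrays without overlap must give this value, so it adds nothing to that choice.

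**Figure D1:**
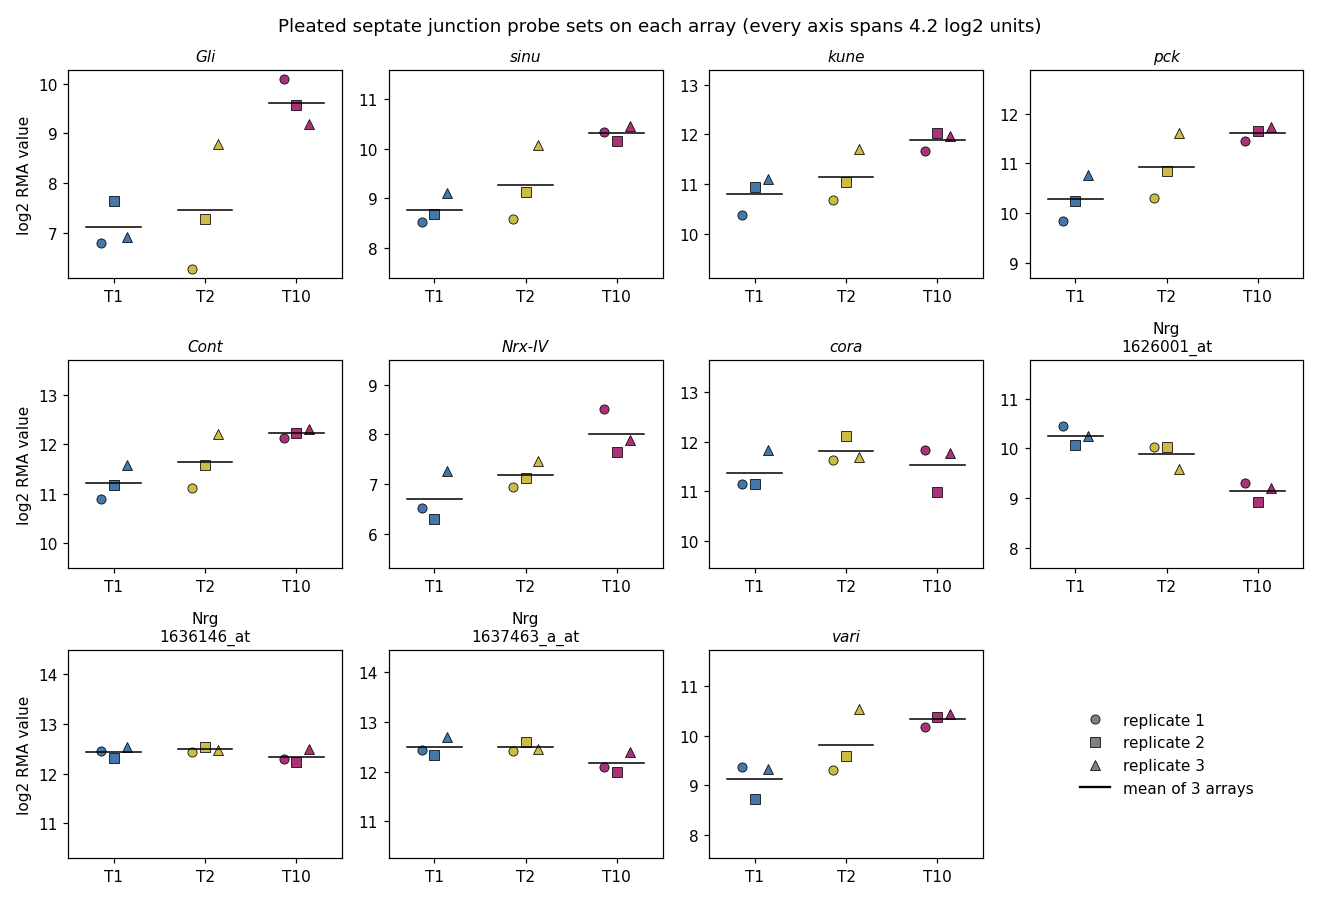
Log2 RMA value (vertical axis) of the 11 probe sets on each array, by transplant round (horizontal axis), with circles, squares and triangles for replicates 1, 2 and 3 and a line at the mean of the 3 arrays. Gli, sinu, kune, pck, Cont, Nrx-IV and vari had all T10 arrays above all T1 arrays, with T2 replicate 3 the highest T2 array of each, while cora and Nrg 1636146_at overlapped and Nrg 1626001_at was lowest in T10.

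Gli encodes gliotactin, a cholinesterase-like membrane protein of the tricellular corners. Its log2 value was 6.78, 7.63 and 6.91 in T1, 6.27, 7.28 and 8.79 in T2, and 10.09, 9.56 and 9.19 in T10. The T10 arrays were all above every T1 and T2 array, and T2 replicate 3 lay between the other T2 arrays and T10. The T1 arrays had a mean of 7.11 ± 0.458 (SD, n = 3) and the T10 arrays one of 9.61 ± 0.452 (SD, n = 3). The log2 change was 2.51 (SE 0.593, 95% confidence interval 1.13 to 3.88), the largest of the 9 genes, with a limma adjusted p of 0.0930. That p was 0.0144 with the 2 rounds alone and 0.0117 without T2 replicate 3.

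The 3 claudin-family genes, whose products are small membrane proteins with 4 passes through the membrane, all had higher values in T10. For sinu (sinuous) the T1 arrays read 8.52, 8.68 and 9.10, the T2 arrays 8.58, 9.13 and 10.07, and the T10 arrays 10.33, 10.16 and 10.46. The log2 change from T1 to T10 was 1.55 (SE 0.348, interval 0.743 to 2.36), 2.93-fold, with a limma adjusted p of 0.0907. The T10 arrays were above all others, and 0.0113 and 0.00817 were the adjusted p with the 2 rounds alone and without T2 replicate 3.

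For kune (kune-kune) the values were 10.37, 10.93 and 11.10 in T1, 10.68, 11.03 and 11.70 in T2, and 11.67, 12.03 and 11.96 in T10. All T10 arrays exceeded all T1 arrays, while the highest T2 array was within the T10 range. The log2 change was 1.09 (SE 0.287, interval 0.423 to 1.75), with a limma adjusted p of 0.104 on all arrays, 0.0461 with T1 and T10 alone and 0.0290 without T2 replicate 3. pck (pickel, also called megatrachea) read 9.84, 10.25 and 10.77 in T1, 10.31, 10.84 and 11.61 in T2, and 11.45, 11.66 and 11.73 in T10. Here too T10 stood above T1 on every array and T2 replicate 3 lay inside the T10 range. A log2 change of 1.33 was found (SE 0.345, interval 0.528 to 2.13), with limma adjusted p of 0.103, 0.0379 and 0.0267 in the same 3 fits.

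Of the adhesion proteins of the core complex, Cont encodes contactin, an immunoglobulin protein with a lipid anchor. Its values were 10.90, 11.17 and 11.58 in T1, 11.12, 11.58 and 12.20 in T2, and 12.12, 12.23 and 12.30 in T10. The T10 arrays were close together, with an SD of 0.0907 against 0.342 in T1, and none overlapped T1. The change was 1.0 on the log2 scale (SE 0.277, interval 0.358 to 1.64), a 2.0-fold difference, with a limma adjusted p of 0.109 on all arrays, 0.0386 with T1 and T10 alone and 0.0295 without T2 replicate 3.

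Nrx-IV (neurexin IV), a transmembrane protein of the Caspr type, binds contactin outside the cell and the scaffold inside it. It read 6.51, 6.30 and 7.27 in T1, 6.94, 7.11 and 7.46 in T2, and 8.50, 7.64 and 7.89 in T10. The T10 arrays were again above all T1 and T2 arrays, but the gap to the highest T1 array was 0.37, the narrowest of the 7 genes. On the log2 scale the change was 1.32 (SE 0.308, interval 0.602 to 2.03), with a limma adjusted p of 0.0927. Nrx-IV was the one of the 7 that did not pass with the T1 and T10 arrays alone (adjusted p = 0.0817), and it passed without T2 replicate 3 (0.0486).

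Nrg (neuroglian) encodes an adhesion protein of the L1CAM type, and its 3 probe sets disagreed. The brightest, 1636146_at, which represented the gene, read 12.46, 12.31 and 12.54 in T1, 12.44, 12.54 and 12.48 in T2, and 12.30, 12.24 and 12.49 in T10. These ranges overlapped, and the log2 change of -0.09 had an interval of -0.332 to 0.146. Probe set 1637463_a_at had a log2 change of -0.33 (interval -0.656 to 0.00311, limma adjusted p = 0.244).

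The third Nrg probe set, 1626001_at, read 10.45, 10.06 and 10.26 in T1, 10.03, 10.03 and 9.59 in T2, and 9.30, 8.92 and 9.20 in T10. It was the one probe set of the 9 genes that was lower in T10 than in T1 without overlap, where 15.1% of all probe sets were, and every T2 array lay between the T1 and the T10 arrays. The log2 change was -1.12 (SE 0.171, interval -1.51 to -0.721), with a limma adjusted p of 0.0736 on all arrays, 0.0182 with T1 and T10 alone and 0.0075 without T2 replicate 3. The annotation does not say which Nrg transcripts each probe set reads.

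Of the cytoplasmic scaffold genes, vari (varicose) encodes a membrane-associated guanylate kinase that binds the tail of Nrx-IV. Its values were 9.36, 8.72 and 9.32 in T1, 9.30, 9.59 and 10.53 in T2, and 10.18, 10.37 and 10.43 in T10. No T10 array overlapped T1, and T2 replicate 3 was above all of them. T10 exceeded T1 by 1.19 on the log2 scale (SE 0.317, interval 0.458 to 1.93), with a limma adjusted p of 0.105 on all arrays, 0.0298 with T1 and T10 alone and 0.0162 without T2 replicate 3.

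cora (coracle), a FERM protein of the protein 4.1 family that binds the same tail, read 11.14, 11.14 and 11.83 in T1, 11.63, 12.11 and 11.69 in T2, and 11.82, 10.98 and 11.76 in T10. The 3 rounds overlapped, and T10 replicate 2 was the lowest of all arrays. The log2 change of 0.15 had an interval of -0.511 to 0.811, which leaves room for a change in either direction. The 2.0-fold difference of Cont lies outside that interval, but the interval of Cont (0.358 to 1.64) overlaps it. Both intervals cover only the scatter of the arrays, which may be technical. cora and vari thus had different values on the same arrays, but the difference between their changes was not tested.

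**Figure D2:**
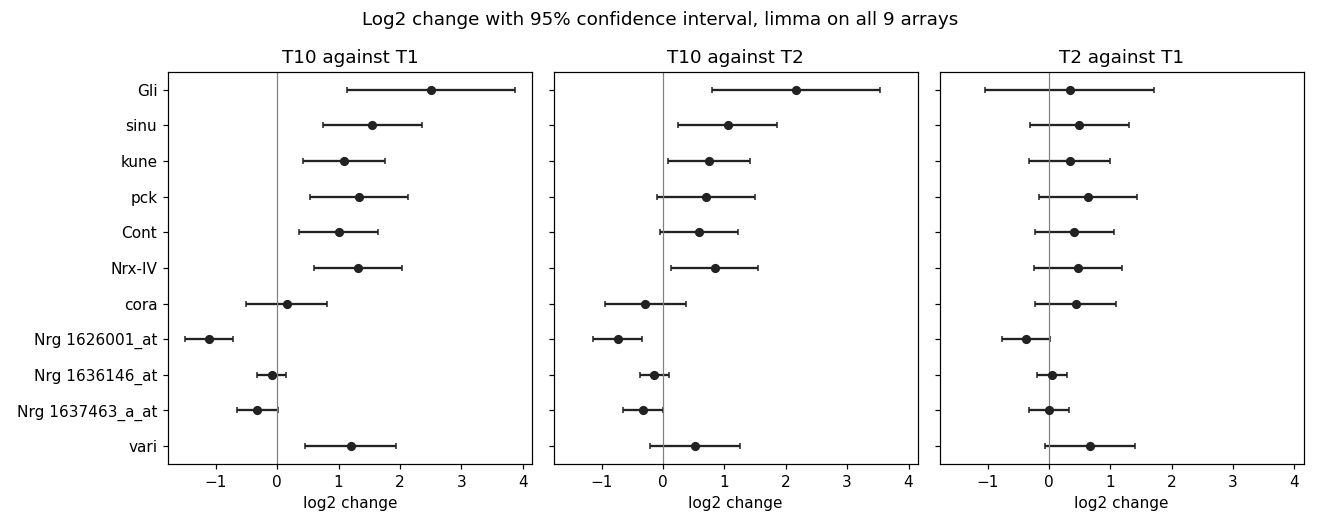
Log2 change (horizontal axis) of the 11 probe sets in each comparison, from limma on all 9 arrays, with bars for the 95% confidence interval. For T10 against T1 the intervals of Gli, sinu, kune, pck, Cont, Nrx-IV and vari lie above 0 and that of Nrg 1626001_at lies below it, and for T2 against T1 every interval includes 0.

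The position of the T2 tumors between T1 and T10 depended on the array. On a scale where the T1 mean is 0 and the T10 mean is 1, the 7 genes stood at -0.33 to 0.19 in T2 replicate 1, at 0.07 to 0.42 in replicate 2 and at 0.58 to 1.17 in replicate 3. T2 replicate 3 was the highest T2 array and above every T1 array for 7 of 7 genes, and it reached the T10 range for 4 of them (kune, pck, Cont and vari). T2 replicates 1 and 2 were below every T10 array for all 7, as they were for 4140 of the 18769 probe sets. Replicate 1 was within or under the T1 range for 7 of 7 and replicate 2 for 4 of 7, with replicate 2 above replicate 1 for each of the 7. The SD of the T2 arrays was 0.265 (Nrx-IV) to 1.27 (Gli) and that of the T10 arrays 0.0907 (Cont) to 0.452 (Gli). The SD within T10 was smaller than within T2 for 6 of 7, all but Nrx-IV, and smaller than within T1 for 7 of 7. Over all 9 genes it was smaller than within T2 for 6 and than within T1 for 7. T2 replicate 3 was above every T1 array for 7 of the 9. The 7 were singled out for T10 arrays above all T1 arrays, which by itself favors such counts, and the counts carry no test.

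**Figure D3:**
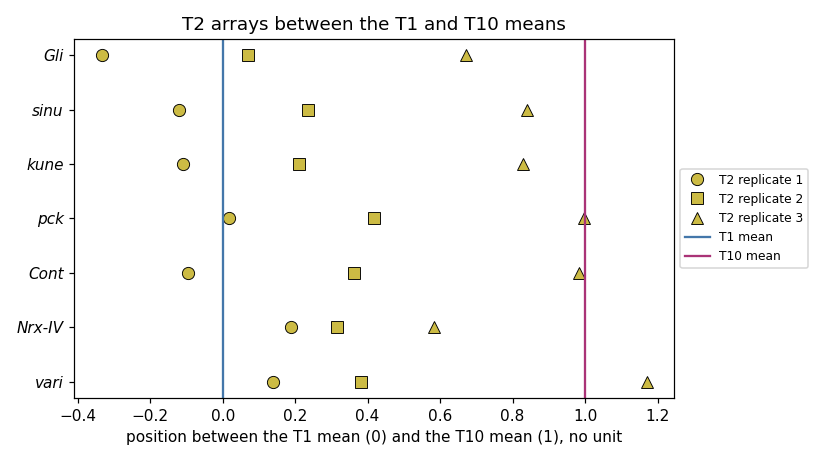
Position of each T2 array (horizontal axis, no unit) between the mean of the T1 arrays, set at 0, and the mean of the T10 arrays, set at 1, for the 7 genes without overlap between T1 and T10 (vertical axis). Replicates 1 and 2 lie between -0.33 and 0.42 and replicate 3 between 0.58 and 1.17.

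Comparing T10 with T2 asked how far the genes differed after the second transplant. The arrays did not overlap for 3 of the 9 genes, Gli, sinu and Nrx-IV, all higher in T10, where 11.9% of all probe sets were higher without overlap. The log2 change was 2.17 for Gli (4.49-fold, interval 0.793 to 3.54; 2.84, or 7.15-fold, without T2 replicate 3), 1.06 for sinu (0.249 to 1.86) and 0.84 for Nrx-IV (0.126 to 1.55). For kune, pck, Cont and vari it was 0.75, 0.69, 0.58 and 0.52, and for cora -0.29 (-0.951 to 0.371). None of the 9 genes passed in limma on all arrays, where 0% of probe sets were called higher and 0% lower, and the adjusted p of the 7 genes was 0.202 to 0.423. The count at an unadjusted p under 0.05 was 4 genes of 9 and 3200 probe sets.

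Without T2 replicate 3, 3 of the 9 genes passed as higher in T10 than in T2, where 3.15% of probe sets did. They were Gli (limma adjusted p = 0.0104), sinu (0.0132) and kune (0.0493). The log2 changes of pck, Cont, Nrx-IV and vari, which did not pass, were then 1.04, 0.87, 0.98 and 0.88. The median log2 change of the 9 genes was then 0.98, against 0.69 with that array and 0.04 over all probe sets on all arrays. Nrg 1626001_at was lower in T10 than in T2 without overlap, with a log2 change of -0.74 (interval -1.14 to -0.348), and so was 1637463_a_at (-0.33), where 9.41% of all probe sets were lower without overlap. The limma adjusted p of the former was 0.171 on all arrays and 0.0209 without T2 replicate 3, where 4.32% of probe sets were called lower. T10 was compared with T1 and with T2 on the same T10 arrays, so the 2 sets of changes are not separate observations of T10.

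Between T2 and T1, the first step, no gene of the 9 stood apart. All 9 means were higher in T2, by 0.05 to 0.67 on the log2 scale, but 0 of 9 had arrays without overlap, where 2.57% of all probe sets were higher and 6.86% lower. None passed in limma on all arrays, where 0% of probe sets were called higher and 0.00533% lower, with adjusted p of 0.760 to 0.910. At an unadjusted p under 0.05 the count was 0 of the 9 genes and 1156 probe sets. The median log2 change was 0.44 with all arrays and 0.13 without T2 replicate 3, and that of Gli turned from 0.34 to -0.33. Nrg 1626001_at, not counted among the 9 since it does not represent its gene, was lower on each T2 array than on any T1 array, with a log2 change of -0.37 (interval -0.769 to 0.0223).

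Within T1, replicate 3 was the highest array for 5 of the 7 genes, while Gli was highest on replicate 2 and vari on replicate 1. Pairwise Pearson correlations over the 9 arrays were 0.783 to 0.997 among the 7, with the highest for pck and Cont. With the 7, cora correlated at -0.039 to 0.412 and Nrg 1636146_at at -0.543 to -0.090. The 7 were singled out for T10 arrays above T1 arrays, which by itself raises their correlations, and the values carry no test.

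Each gene had a closest neighbor among the other named genes by Pearson correlation over the same 9 arrays. For both pck and Cont it was crim (0.994 each), which encodes a Ly6-type protein needed for septate junctions. For Gli it was Nox, an NADPH oxidase gene, at 0.980, for kune Taf6 at 0.981, for sinu CG10089 at 0.994 and for vari CG1607 at 0.986. For Nrx-IV it was beta3GalTII (0.974), for cora CG46339 (0.953) and for Nrg CG5810 (0.949). With 9 arrays and 11982 genes compared, such a neighbor describes the pattern on these arrays and no more.

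Other genes of the pleated septate junction had the same direction. A list of 13 held 11 with a named probe set, and all 11 means were higher in T10 than in T1, with a median log2 change of 1.10 against -0.01 over all probe sets. The arrays did not overlap for 8 of the 11, against the 12.9% of all probe sets given above. One of the 8 was nrv2, whose lowest T10 array read 10.04 and highest T1 array 9.98. Its log2 change of 0.33 had an interval of -0.0903 to 0.744 (limma adjusted p = 0.348). None of the 11 passed in limma on all 9 arrays. With T1 and T10 alone 6 passed, where 2.98% of all probe sets were called higher. Without T2 replicate 3, 5 passed, where 3.66% were. The gene that passed with T1 and T10 alone and not without T2 replicate 3 was bou, with limma adjusted p of 0.0175 and 0.192.

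The other tricellular junction gene with a large difference was bark (also called anakonda), whose product anchors Gli at the corners. Its log2 values were 9.80, 10.12 and 10.13 in T1, 10.41, 10.33 and 11.0 in T2, and 11.31, 11.35 and 11.16 in T10. The 3 rounds did not overlap, and the order was T1, T2 and T10. The log2 change from T1 to T10 was 1.26 (SE 0.189, interval 0.819 to 1.69), with a limma adjusted p of 0.0736 on all arrays, 0.0080 with T1 and T10 alone and 0.0027 without T2 replicate 3. M6, a proteolipid protein also found at tricellular corners, had a log2 change of 0.40 (adjusted p = 0.389).

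Among the Ly6-type genes, whose products are small proteins with a lipid anchor that help assemble the junction, the log2 change was 1.45 for crim (limma adjusted p = 0.103), 1.33 for bou (0.320), 1.10 for cold (0.109) and 0.74 for crok (0.195). For Tsf2, the iron-binding melanotransferrin, it was 1.43 (0.0896). For the pasiflora genes, which encode membrane proteins of the junction, it was 1.10 for pasi1 (0.127) and 1.23 for pasi2 (0.144). The smallest differences were those of nrv2, the beta subunit of the sodium pump, at 0.33 and of Lac, an immunoglobulin protein, at 0.16. The list's genes without a named probe set, Atpalpha and Fas3, were not analysed here.

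Of 4 lateral polarity genes whose products meet the junction proteins, the representative probe set of scrib had a log2 change of 1.30 (limma adjusted p = 0.0927, and 0.0384 with T1 and T10 alone). Its other 4 probe sets gave -0.63, 0.34, -0.47 and 0.45, so the direction for scrib depends on the probe set. The FERM gene yrt stood at 0.32, l(2)gl at 0.23 and dlg1, a scaffold gene, at 0.08. The median of the 4 was 0.27, and 1 of them passed with T1 and T10 alone, where 2.98% of probe sets were called higher.

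On their representative probe sets, the 4 smooth septate junction genes mesh, Ssk, Tsp2A and hoka had lower values in T10 than in T1 on every array. Of all probe sets, 15.1% were lower without overlap. Their median log2 change was -3.49. On all arrays limma called none of them, with the T1 and T10 arrays alone it called 3 lower, where 2.99% of probe sets were, and without T2 replicate 3 it called 4, where 3.96% were. T2 replicate 3 read 5.63 for mesh, the membrane protein on which that junction is built, against 12.17 and 11.85 on the other T2 arrays and 4.69 to 6.13 in T10. On that array 7 of the 9 pleated junction genes, all but cora and Nrg, had their highest and mesh its lowest T2 value.

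**Figure D4:**
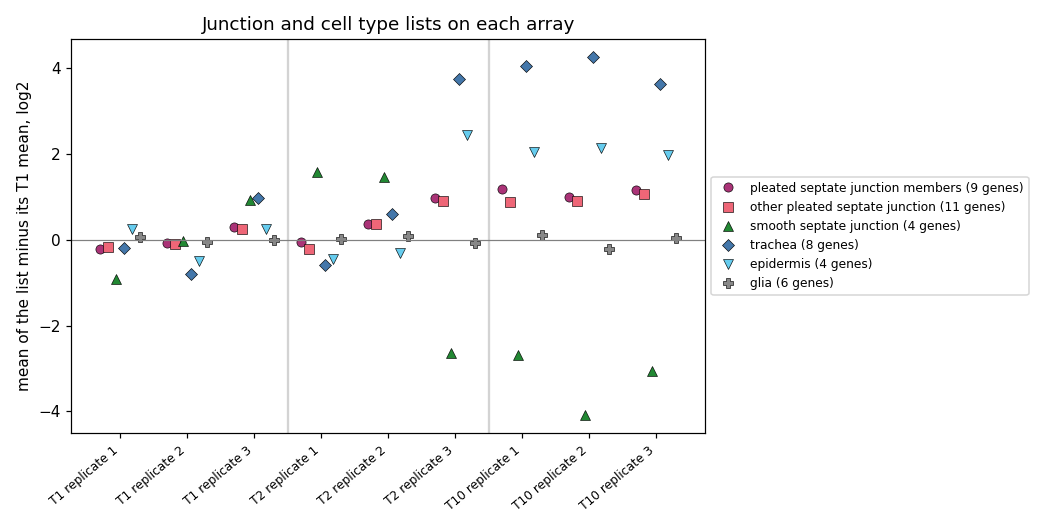
Mean log2 RMA value of each gene list on each array, less the list's mean over the 3 T1 arrays (vertical axis), with the 9 arrays on the horizontal axis. On the T10 arrays and T2 replicate 3 the lists of pleated septate junction, trachea and epidermis genes were above their T1 mean and the smooth septate junction list below it.

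Markers of tissues that have pleated septate junctions were read on the same arrays. The mean log2 value of 8 named tracheal genes was 6.31 to 8.09 in T1, 6.52 to 10.85 in T2 and 10.74 to 11.38 in T10, with the 10.85 on T2 replicate 3. Of the 8, 7 were higher in T10 without overlap, by 3.21 (vvl) to 5.38 (verm), where 12.9% of all probe sets were higher without overlap. With T1 and T10 alone, 6 passed as higher, where 2.98% of probe sets did. One, the tracheal FGF receptor gene btl, was lower, by 1.51. The defining gene trh had no named probe set. Thus the tracheal list and the 7 junction genes were high on the same arrays, and its part in their difference was not tested.

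The 4 epidermal genes had a mean of 4.77 to 5.52 in T1 and 7.24 to 7.42 in T10, and 7.72 on T2 replicate 3. Of them kkv, which is also on the tracheal list, and the epidermal regulator grh were higher in T10 without overlap, while ple and Ddc overlapped. Of all probe sets, 12.9% were higher without overlap and 15.1% lower. The glial list had a mean of 6.27 to 6.39 in T1 and 6.11 to 6.43 in T10, and its defining marker repo was at 3.59 to 3.93 on all arrays, below the median of all probe sets. Of its 6 named genes, 2 were above that median in T1 and in T10, moody and loco. The mean of moody was 9.94 in T1 and 9.84 in T10, with overlapping arrays, and that of loco 12.20 and 11.22. Members of the glial list differed, with alrm higher (log2 change 0.97) and loco lower (-0.97) in T10 without overlap. With T1 and T10 alone 1 of the 6 was called, higher, where 2.98% of probe sets were. In the hindgut and foregut list the defining hindgut marker byn was at 3.71 to 4.16, also below the median, while bowl was higher (3.29) and drm (-2.83) and lin (-0.15) lower in T10 without overlap. The intervals of drm (-6.04 to 0.377) and lin (-0.414 to 0.120) included 0. In T10, drm read 5.57 on replicate 2 and 10.28 and 11.97 on replicates 1 and 3. None of the 5 genes of that list passed with T1 and T10 alone. Without T2 replicate 3, 1 passed as higher, where 3.66% of probe sets did. The mean of 5 follicle cell genes was 6.38 to 7.34 in T1 and 6.17 to 6.34 in T10, and that of 8 hemocyte genes 4.23 to 4.53 and 4.40 to 4.96. In the follicle list slbo was lower in T10 without overlap (-2.74), where 15.1% of all probe sets were. In the hemocyte list NimC1 (0.65) and lz (0.54) were higher without overlap, where 12.9% were, and both were below the median of all probe sets. None of either list passed with T1 and T10 alone. As a sign of RNA quality, the difference between 3′ and 5′ control probe sets changed from T1 to T10 by -0.03 for actin, 0.16 for eIF-4a and -0.07 for GAPDH on the log2 scale.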

How the data were processed

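RNA from tumor pieces was amplified as cDNA and hybridised to Affymetrix arrays. The authors summarised them by RMA, using the packages affyPLM and affy (the submitters' processing notes name RMA and affy, without versions), and the deposited values are on a log2 scale. They were used as they stand, with 0 columns left without a sample. The array had 18952 probe sets, of which 183 were controls and were removed, and no filter on dim ones was applied. The platform annotation gave 13647 probe sets 1 symbol, 402 several and 4720 none, and those without 1 symbol are unnamed here. Symbols of 13544 probe sets were updated through Entrez identifiers to current RefSeq names (Release 6 plus ISO1 MT), with no coordinates used.

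Rounds were compared with limma 3.58.1 in R 4.3.3 (lmFit and eBayes on all 9 arrays, no covariate) with Benjamini-Hochberg adjustment over 18769 probe sets and a threshold of 0.05. The difference in each gene was also tested by an exact permutation test (scipy 1.17.1). A gene with several probe sets was represented by the brightest on average. The tests were checked on simulated data. The number of arrays, 3 per round, limits the precision. Alternatives were the arrays of the compared rounds alone, each array or replicate number left out, the replicate number as a block, quantile normalization, array weights, dim probe sets left out and the mean of a gene's probe sets. The share without overlap among brighter probe sets was added after the data were seen.

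The members and lists were chosen with earlier results of these data known. All members were named, with all their probe sets, and beside them the genes of each junction list, of which up to 5 with the smallest p were to be named, and the 1 gene most like each member. bou, pasi2, crok, M6, nrv2 and Lac were named beyond that rule, after their values were seen. A gene on the cell type lists was named as the defining marker, as the end of a range or, after its values were seen, for arrays without overlap. No sequences were used here.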

Additional observations from a re-analysis of the deposited data

How the results depend on the processing

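The direction of the 7 genes in T10 against T1 was kept under every alternative run, while the calls moved with the fit. The 7 were singled out for T10 arrays above all T1 arrays, so leaving out or weighting arrays could not turn that direction. Of the 9 genes, 0 were called on all arrays, 6 with T1 and T10 alone and 7 with array weights. Quantile normalization, the replicate block, dim probe sets left out and the mean of a gene's probe sets each gave 0. With arrays left out, the count was 7 without T2 replicate 3 and 1 without T1 replicate 3 (Nrx-IV). It was 5 where the third replicate of all rounds was left out, and 0 in every other such fit. The limma adjusted p over the alternatives ranged from 0.0117 to 0.644 for Gli, from 0.00817 to 0.644 for sinu and from 0.0162 to 0.648 for vari. For kune it was 0.0247 to 0.646, for pck 0.0226 to 0.646, for Cont 0.0242 to 0.648 and for Nrx-IV 0.0235 to 0.644. The counts of probe sets called were 2 on all arrays, 1122 with T1 and T10 alone, 1997 with array weights, 1 with dim probe sets left out, 1 with quantile normalization and 0 to 1449 with arrays left out. For T10 against T2 the count of 0 became 5 with quantile normalization, 1118 with array weights and 0 to 1401 with arrays left out, and the genes called were 2 with array weights and 0 to 3 with arrays left out. For T2 against T1 the count of 1 became 0 with dim probe sets left out, 5 with array weights and 0 to 34 with arrays left out, and 0 of the 9 genes were called in any fit.

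With arrays left out, the log2 change of cora was -0.11 (without replicate 1) to 0.42 between T10 and T1 and -0.53 to 0.13 (without replicate 2) between T10 and T2. Between T2 and T1, that of Gli was -0.43 (without replicate 3) to 0.93, with -0.33 when only T2 replicate 3 was left out, and that of Nrg -0.04 (without replicate 2) to 0.10, with -0.01 without T1 replicate 2, and -0.11 with the mean of its probe sets. Of 588 alternatives for the 11 probe sets, 541 kept direction and side of the threshold, 40 passed it where all arrays had not and 7 turned direction. The cause of these differences was not tested. Leaving out T2 replicate 3 or T2 as a whole removes a wide spread from the shared error of the 7 genes, Nrx-IV aside. The SE of Nrx-IV in T10 against T1 was 0.308 on all arrays, 0.307 without T2 replicate 3 and 0.330 with T1 and T10 alone.

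No pairing of the samples by replicate number was seen. The check cannot exclude one, since the deviations of the 3 arrays of a round sum to 0 and the correlations depend on each other. Deviations from the round means correlated at -0.284 to 0.188 for the same number, over 0.1 in 3 of 9 pairs, and at -0.229 to 0.274 for different numbers, and 0 of 9 arrays correlated best with their own number in both other rounds. Over all arrays of the other rounds, 2 of 9 did, T1 replicate 3 and T10 replicate 3 with each other. The labels do not tie a number to one metastasis. With the number as a block, 5 probe sets were called between T10 and T1, and 0 of the 9 genes.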
